A study of Canis lupus familiaris with 222 samples.

Results

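Complex carcinoma is a common malignant form of canine mammary tumor (CMT). In complex carcinoma the malignant luminal epithelium grows together with proliferating myoepithelial cells, the contractile cells that surround the ducts and alveoli. In simple carcinoma a single epithelial cell type makes up the tumor. A normal mammary gland also holds fat, connective tissue, vessels and, according to the hormonal state of the dog, more or less secretory epithelium. The question addressed here was which genes differed between a complex carcinoma and the adjacent normal mammary tissue of the same dog.

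The comparison held the 20 dogs with a complex carcinoma for which both tissues were sequenced, that is 40 of the 222 RNA-seq libraries. In all, 64 dogs had both tissues. Histology was taken from the clinical table of the study. The sample labels give the same histology for 19 of the 20 dogs and call the tumor of CMT-374 a complex adenoma. The tumors were spontaneous, all dogs were female pets aged 7 to 17 years (median 12), and none had received a treatment named in the labels. A total of 14 dogs were intact and 6 were neutered. By breed, 9 were Maltese, 4 mixed, 2 Pomeranian and 2 Shih Tzu. A Dachshund, an Old English Sheepdog and a Yorkshire Terrier made up the rest. The tumors were of grade 1 in 14 dogs, grade 2 in 5 and grade 3 in 1, and lymphatic invasion was absent in all 20. Surgery took place in 2016 for 1 dog, in 2017 for 13 and in 2018 for 6. Among the dogs with both tissues that serve for comparison, the 21 with simple carcinoma were aged 2 to 19 years (median 13), with 7 tumors of grade 1, 5 of grade 2 and 9 of grade 3, and with lymphatic invasion in 9. The 13 dogs with benign tumors were aged 6 to 13 years (median 10). The 7 dogs with a carcinoma in a mixed tumor were aged 6 to 15 years (median 12), with 5 tumors of grade 1 and 2 of grade 2. The 3 dogs with other histologies were aged 8 to 17 years (median 16), with 1 tumor of grade 2 and 2 of grade 3. Neutered dogs were 10 of 21 with simple carcinoma, 4 of 13 with benign tumors and 2 of 7 with mixed tumors. The 3 dogs with other histologies were intact. Surgery took place in 2018 for 2 of 21 dogs with simple carcinoma, 2 of 13 with benign tumors and 1 of 7 with mixed tumors. It took place in 2016 for 4, 5 and 3 of these dogs, and in 2017 for all 3 with other histologies. A further 16 dogs with complex carcinoma but no normal library were aged 7 to 16 years (median 13), and 2 were neutered. Their tumors were of grade 1 in 13, grade 2 in 1 and grade 3 in 2. Surgery was in 2016 for 6 of these 16 dogs and in 2017 for 10. The normal tissue was taken next to the tumor in the same animal, so it is not tissue of a healthy dog.

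Expression is given as FPKM, the fragments of a gene divided by transcript length and by the total of fragments mapped in that library. The values carry Ensembl gene identifiers, and no table used here pairs them with gene names. The genes are therefore described by identifier, without a function. Marker genes of epithelial, myoepithelial and other cell types, and with them the tissue labels, could not be checked. In bulk tissue, a lower level can mean fewer cells of a type or less RNA per cell, and these cannot be told apart.

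Among the 40 libraries no pair held identical values, and the closest pair had a correlation of 0.955. The median FPKM over the tested identifiers lay between 5.37 and 7.99 in tumors and between 3.00 and 7.94 in normal tissues. It was higher in the tumor than in the own normal tissue in 15 of 20 dogs, by 0.22 ± 0.35 on the log2 scale (mean ± SD, n = 20, adjusted p = 0.0070, two-sided permutation test, over 3 library measures). The normal libraries of CMT-538 and CMT-725 had the lowest medians, 3.00 and 3.72, and were the least like the other normal libraries, with mean correlations of 0.761 and 0.795 against a median of 0.849. The 10 most abundant identifiers took 13.9% to 30.7% of the FPKM sum in normal tissue and 12.3% to 25.9% in tumors, a difference that did not pass the test (adjusted p = 0.066, permutation test, lower in 15 of 20 tumors).

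Of 14638 identifiers tested, 1131 were called different between complex carcinomas and the own normal tissue. A total of 518 were higher in the tumor (3.54% of those tested) and the others were lower (4.19%). A call needed an adjusted p under 0.05 in limma's test paired by dog and a mean difference of at least 1 in log2(FPKM + 1), the quantity used for all differences. Without the demand on size, 4298 identifiers were higher and 1684 lower (29.4% and 11.5%). The median difference over all tested identifiers was 0.17, so single changes stand against a general shift upward in the FPKM values of tumors. FPKM is relative within a library, and the mean FPKM sum of a library was 641529 in tumors and 746051 in normal tissue. When libraries were scaled to the same upper quartile, the shift was 0.07, and 406 of 1091 called identifiers were higher. When libraries were centred on their median, the shift was -0.02, and 835 of 1152 called identifiers were lower. Identifiers called higher thus made up 45.8% of the calls as deposited, 37.2% after upper quartile scaling and 27.5% after median centring. The balance turned the other way with a pseudocount of 0.1, where 55.1% of 2017 calls were higher, and in the 6 dogs operated on in 2018, where 66.7% of 1261 calls were higher. Which direction held more calls thus depended on the processing and on the dogs included. None of the 1131 called identifiers changed sign under either scaling, and 1019 and 930 of them were called again.

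**Figure D1:**
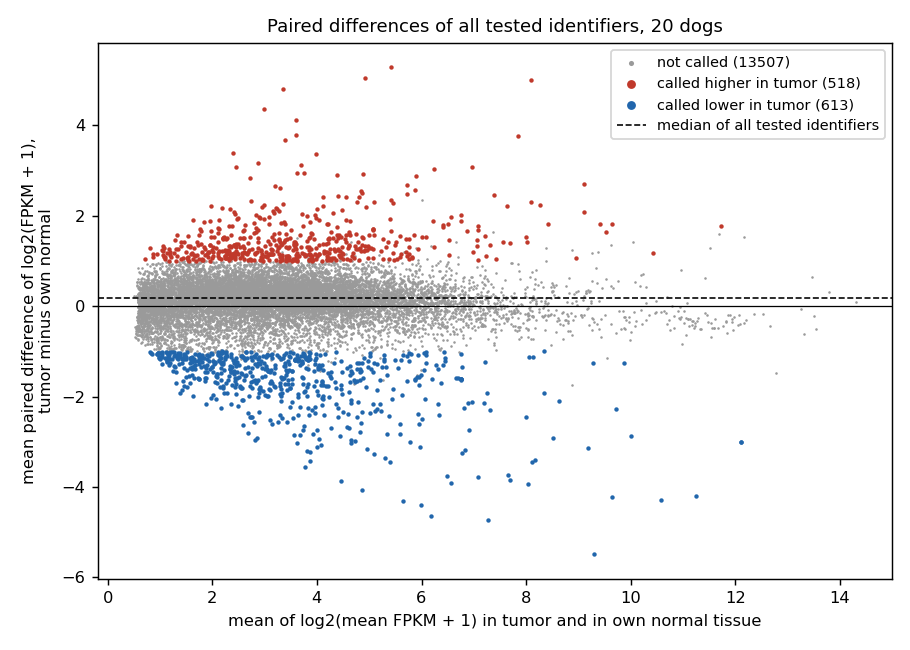
Mean paired difference of log2(FPKM + 1), tumor minus own normal (vertical axis), against the mean of log2(mean FPKM + 1) in both tissues (horizontal axis), 1 point per tested identifier over 20 dogs. The 518 identifiers called higher (red) and those called lower (blue) cover low and high levels. The dashed line at 0.17 is the median over all identifiers, and the lower calls reach further from 0 among abundant identifiers.

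Large decreases outnumbered large increases. A difference of at least 2 was found for 67 identifiers called higher and 132 called lower, and a difference of at least 3 for 16 and 37. Among the calls, more of the decreases than of the increases lay at high levels. A mean of at least 1000 FPKM in normal tissue was seen for 13 of the identifiers called lower, and a mean of at least 1000 FPKM in tumors for 6 of those called higher. Summed over the identifiers called lower, the mean level was 105819 FPKM in normal tissue and 12029 FPKM in tumors. The sum over the 518 identifiers called higher was 12374 FPKM in normal tissue and 35201 FPKM in tumors. These counts and sums were made from the called identifiers and describe them without a test. The number of all tested identifiers at such levels was not taken.

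A few genes were near the bottom of the scale in a tissue and well expressed in the other. Among identifiers called higher, 10 had a median under 0.5 FPKM in normal tissue and of at least 5 FPKM in tumors. Among identifiers called lower, 18 had a median under 0.5 FPKM in tumors and of at least 5 FPKM in normal tissue. Both counts were taken among the calls only, without the share over all tested identifiers, and describe them.

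The identifier with the strongest increase was ENSCAFG00000007857. Its level in normal tissue ran from 0 in CMT-217, where it is listed at 0, over a median of 3.32 FPKM to 34.4 FPKM in CMT-374. In tumors it ran from 6.87 FPKM in CMT-201 over a median of 196.5 FPKM to 1016 FPKM in CMT-374. The tumor exceeded the own normal tissue in all 20 dogs, and 18 of 20 tumors exceeded every normal tissue. The mean was 293 ± 270 FPKM in tumors and 5.21 ± 7.67 FPKM in normal tissue (SD, n = 20). The paired difference was 5.29 ± 0.47 (SE) with a limma adjusted p of 3.1e-07. The named identifiers were chosen for large differences in these libraries, and the share of all tested identifiers with such separation was not counted.

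ENSCAFG00000014019 was the second. It lay between 0.527 and 6.81 FPKM in normal tissue, with a median of 1.77 FPKM, and between 0.190 and 1763 FPKM in tumors, with a median of 141 FPKM. The normal tissues thus kept to a narrow and low range, while the tumors spread widely. It was higher in 19 of 20 tumors, and 18 tumors exceeded every normal tissue. The exception was the grade 2 tumor of CMT-201, with 0.190 FPKM against 1.04 FPKM in its normal tissue. The paired difference was 5.05 ± 0.53 (SE), with a limma adjusted p of 1.4e-06.

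The strongest decrease was that of ENSCAFG00000025410. Its level in normal tissue ran from 33.5 FPKM in CMT-538 over a median of 1431 FPKM to 25775 FPKM in CMT-278. In tumors it ran from 0.986 FPKM in CMT-435 over a median of 19.2 FPKM to 659.4 FPKM in CMT-308. The levels of the tissues overlapped, and 13 of 20 tumors lay below every normal tissue. Within dogs it was lower in 19 of 20 tumors. In CMT-538, whose normal library held the lowest level, the tumor had 54.5 FPKM. The paired difference was -5.49 ± 0.64 (SE) with a limma adjusted p of 4.5e-06.

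ENSCAFG00000014049 was lower in all 20 tumors. It lay between 65.0 and 2043 FPKM in normal tissue, with a median of 566 FPKM, and between 1.89 and 266 FPKM in tumors, with a median of 12.3 FPKM. A total of 16 tumors lay below every normal tissue. The highest tumor level and the smallest decrease, 1.28 on the log2 scale, were both found in CMT-308. The paired difference over all dogs was -4.73 ± 0.44 (SE), with a limma adjusted p of 4.1e-07. All 4 identifiers kept their call when any single dog was left out, when CMT-538 and CMT-725 were left out together, and under each scaling.

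**Figure D2:**
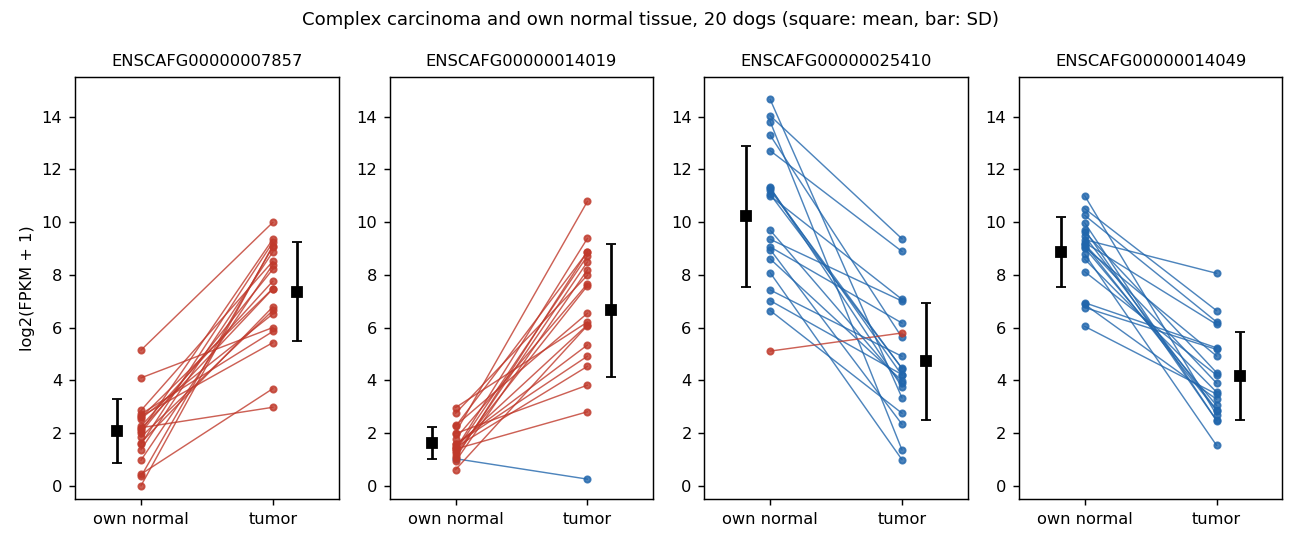
Levels of the 4 named identifiers in log2(FPKM + 1) (vertical axis) in the own normal tissue and the tumor, 1 line per dog (n = 20), red where the tumor was higher and blue where it was lower. Black squares and bars give the mean and SD of each tissue. A single line goes against the others for ENSCAFG00000014019 (CMT-201) and for ENSCAFG00000025410 (CMT-538), and the normal tissues spread most for ENSCAFG00000025410.

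The called identifiers held their direction in most dogs, which the choice by a paired test in these same dogs favors. Identifiers called higher were higher in a median of 18 of 20 dogs, and those called lower were lower in a median of 17. Over all tested identifiers, 140 were higher in every tumor than in its own normal tissue (0.956%), and 56 were lower in every tumor (0.383%). Of these, 65 and 49 were also called. The order of these counts followed the general shift, since 76 identifiers were higher and 81 lower in every tumor after upper quartile scaling, and 50 and 117 after median centring. At the other end, 119 of the identifiers called lower and 26 of those called higher held their direction in 14 or fewer dogs.

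Over all tested identifiers, normal tissues, CMT-538 and CMT-725 included, varied more between dogs than tumors did. The median SD of log2(FPKM + 1) over the tested identifiers was 0.45 among the 20 tumors and 0.59 among the 20 normal tissues. The SD was larger among normal tissues for 11277 of 14638 identifiers. This did not hold for the identifiers called higher, with median SDs of 0.90 among tumors and 0.86 among normal tissues. For those called lower the median SDs were 0.80 and 1.40. A library of tumor tissue had a higher mean correlation with the other tumors than the normal library with the other normal tissues in 19 of 20 dogs, by 0.053 ± 0.038 (SD, adjusted p = 0.00036, two-sided permutation test). The exception was CMT-308, whose tumor had the lowest mean correlation with the other tumors, 0.802, against a median of 0.902. Each mean correlation uses the libraries of the other dogs, so the 20 values are not independent. The permutation test treats them as independent and can overstate the evidence.

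The 10 identifiers with the highest means in normal tissue had between 8699 and 19986 FPKM. Of these, 8 had a lower mean in tumors on the log2 scale and 4 were called lower, where 4.19% of all tested identifiers were, and each was lower in 8 to 16 of the 20 dogs. A choice by high levels in normal tissue favors lower levels in tumors, so the 4 calls are given as a description. Of the 10 identifiers with the highest means in tumors, 5441 to 20661 FPKM, 0 were called in either direction and 6 had a lower mean in tumors on the log2 scale. A group of 6 identifiers belonged to the 10 most abundant in both tissues.

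Each dog on its own showed changes of different extent. At least 2-fold higher levels in the tumor, on the scale of log2(FPKM + 1), were found for 675 identifiers in CMT-169, for a median of 1329 over the dogs and for 5797 in CMT-538. Levels at least 2-fold lower were found for between 603 identifiers in CMT-121 and 2735 in CMT-458, with a median of 1260. Increases outnumbered decreases most in CMT-538, CMT-725, CMT-278 and CMT-667, with between 3749 and 5797 increases each. The median difference over all identifiers of a dog ran from -0.16 in CMT-458 to 0.63 in CMT-538 and was above 0 in 15 dogs.

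The number of increases per dog moved with the median FPKM of its normal library, with Pearson's r = -0.85 (p = 6.0e-05) and Spearman's rho = -0.72 (p = 0.00062), permutation tests, n = 20. After adjustment over 3 relations these were p = 0.00018 and p = 0.0019 by the same permutation tests. Both measures use the normal library, so they are not independent. Without CMT-538 and CMT-725, whose medians lay farthest from the others, r was -0.63. Within surgery years r was -0.86 in 2017 (13 dogs, CMT-538 among them) and -0.89 in 2018 (6 dogs, CMT-725 among them). The number of decreases did not move with that median (r = -0.06, p = 0.76, rho = -0.15, p = 0.52, permutation tests, without the same 2 dogs r = -0.10). Nor did the median difference of a dog move with the difference in mapping rate between its libraries (r = 0.11, p = 0.67, rho = 0.04, p = 0.88, permutation tests, without CMT-435 and CMT-678 r = 0.14). The part of the normal library's level in the increases was not tested further. With both dogs left out, 499 identifiers were called higher and 641 lower.

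**Figure D3:**
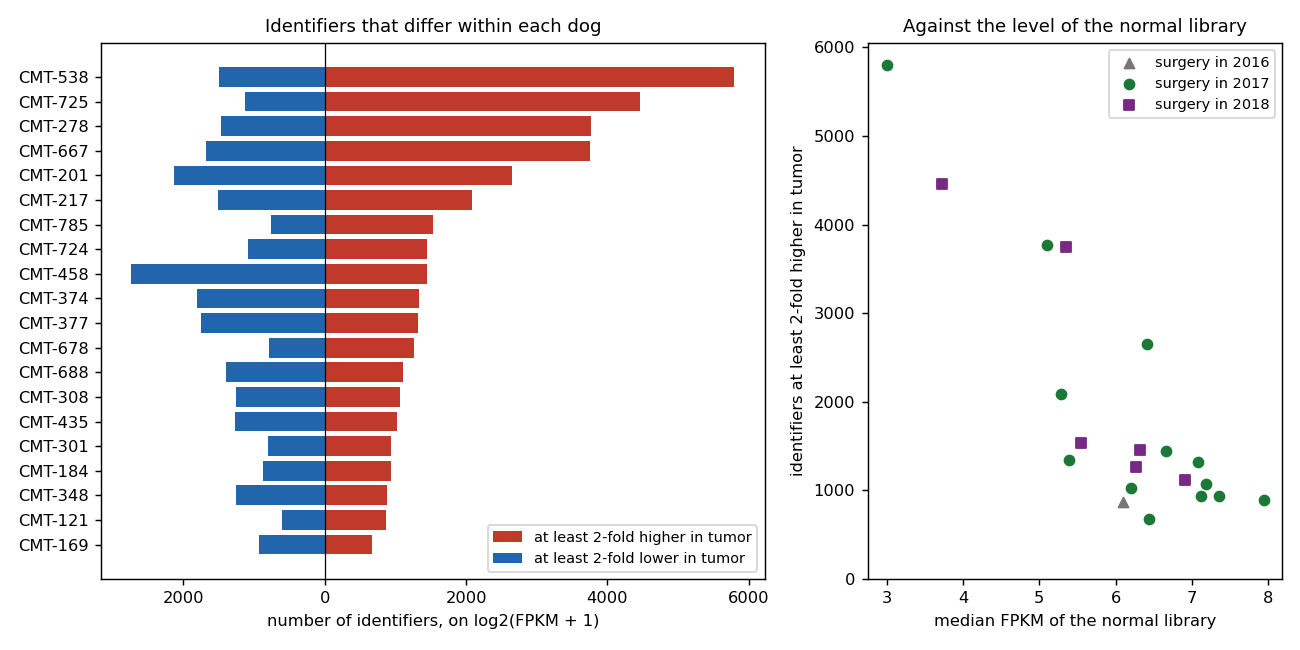
Left, number of identifiers at least 2-fold higher (red, to the right) or lower (blue, to the left) in the tumor than in the own normal tissue, 1 bar pair per dog (n = 20), ordered by the increases. Right, number of increases (vertical axis) against the median FPKM of the normal library (horizontal axis), 1 point per dog, with the shape giving the surgery year. CMT-538 and CMT-725 have the lowest normal medians, 3.00 and 3.72, and the most increases.

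The dogs resembled each other to a varying degree. The correlation of a dog's differences with the mean of the other 19, taken across identifiers, was 0.187 in CMT-121, 0.513 at the median and 0.742 in CMT-688. CMT-538 and CMT-308 also had low values, 0.271 and 0.280. Identifiers are not independent replicates, so these correlations only describe the dogs. In CMT-308, 66.4% of the 518 identifiers called higher were higher in the tumor, the lowest share of all dogs, against a median of 89.4%. In CMT-121, 58.7% of the identifiers called lower were lower in the tumor, again the lowest share, against a median of 82.0%.

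Other complex carcinomas were used to look at the same identifiers in separate libraries. These were 16 complex carcinomas without normal tissue, compared with the normal tissues of 44 dogs with other tumors. In that unpaired comparison, 260 identifiers were called higher and 472 lower of 14658 tested (1.77% and 3.22%). Of the 518 identifiers called higher in the 20 dogs, 512 were tested there. A higher mean in tumors was found for 497 of the 512 (97.1%) against 63.2% of all tested identifiers, and 38.5% of them were called higher. Of the identifiers called lower, which were all tested, 612 had a lower mean in tumors (99.8%) against 36.8% of all tested identifiers, and 335 were called lower (54.6%). None was called in the opposite direction. The median differences were 0.90 and -1.11, against 0.11 over all tested identifiers.

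**Figure D4:**
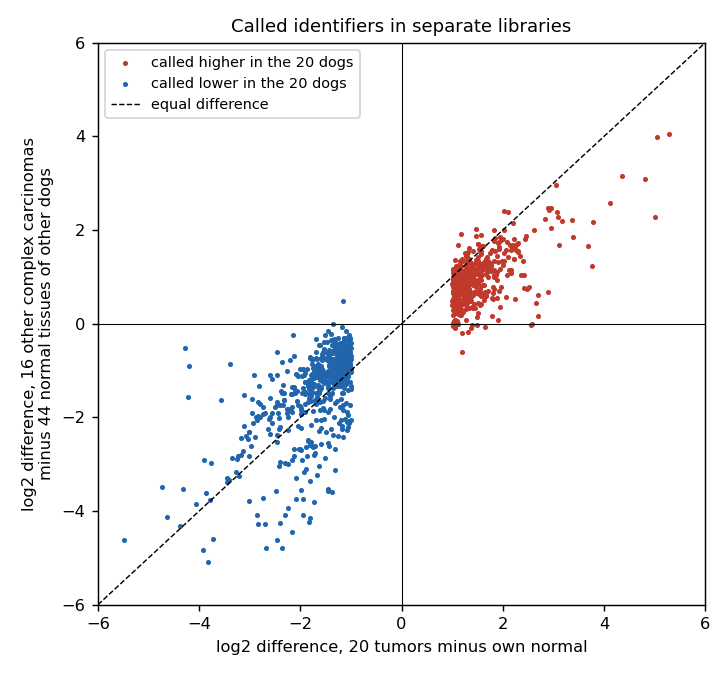
Mean log2(FPKM + 1) difference of the called identifiers in 16 other complex carcinomas against the normal tissues of 44 other dogs (vertical axis), against the paired difference in the 20 dogs (horizontal axis), 1 point per identifier called higher (red) or lower (blue). Nearly all points lie in the lower left or upper right quadrant, with 497 of 512 red points and all but 1 blue point, and the dashed line marks equal differences.

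The 4 named identifiers were called in the same direction in these libraries. ENSCAFG00000007857 had 2.79 to 589 FPKM in the 16 tumors with a median of 115 FPKM, while the 44 normal tissues ran from 0 (listed at 0) to 156 FPKM around a median of 3.54 FPKM. ENSCAFG00000014019 had 1.30 to 507 FPKM in the tumors and 0.454 to 101 FPKM in the normal tissues, with medians of 62.4 and 1.75 FPKM. The groups overlapped, and for both identifiers the highest normal tissue exceeded the tumor median. For each of both, 14 of 16 tumors lay above the normal median. The differences were 4.05 ± 0.48 for ENSCAFG00000007857 and 3.98 ± 0.44 for ENSCAFG00000014019 (SE), with limma adjusted p of 2.5e-08 and 4.2e-09. ENSCAFG00000025410 had medians of 58.7 FPKM in tumors and 1300 FPKM in normal tissue, and ENSCAFG00000014049 of 33.9 and 380.8 FPKM. All 16 tumors lay below the normal median for both. The differences were -4.62 ± 0.84 and -3.49 ± 0.60 (SE), with limma adjusted p of 5.9e-05 and 2.0e-05.

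Complex carcinomas were then set against the other histologies among the dogs with both tissues. In the 21 dogs with simple carcinoma, the same paired test called 150 identifiers higher and 507 lower of 14657 (1.02% and 3.46%). The spread of the paired differences was about the same, with a median SD of 0.65 over identifiers against 0.69 in complex carcinomas. The median difference over all identifiers was 0.00 in simple carcinomas. In the 13 dogs with benign tumors, 482 of 14595 identifiers were called, 0.946% higher and 2.36% lower. In the 7 dogs with a carcinoma in a mixed tumor, 1 of 14514 was called higher (0.00689%) and none lower, with 1325 at an unadjusted p under 0.05 in limma. These counts rest on different numbers of dogs and do not test whether the histologies differ.

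The test of the difference itself gave few calls. In a fit over all 64 dogs, the paired difference was larger in complex than in simple carcinomas for 7 of 14707 identifiers (0.0476%) and smaller for 0. At an unadjusted p under 0.05, 2671 identifiers had the larger difference in complex carcinomas and 240 in the opposite direction. The median of this difference over all identifiers was 0.16, and the 7 calls had adjusted p of 0.048, close to the threshold. The calls were lost after upper quartile scaling (0 called, smallest adjusted p 0.078, median difference 0.05), with the mapping rate as covariate (0 called, smallest adjusted p 0.21) and without CMT-538 and CMT-725 (0 called, smallest adjusted p 0.13). Surgery year was unevenly spread, with 2018 in 6 of 20 complex and 2 of 21 simple carcinomas. With surgery year as a further term, 6 of the 7 were called again. Grade also moved with histology, with grade 3 in 1 of 20 complex and 9 of 21 simple carcinomas. Without the tumors of grade 3, a check added after the data were seen, 0 identifiers were called (smallest adjusted p 0.31). Against benign tumors limma called 0 identifiers, with 1869 at an unadjusted p under 0.05 and a smallest adjusted p of 0.26. Against carcinomas in mixed tumors it also called 0, with 1226 at an unadjusted p under 0.05 and a smallest adjusted p of 0.57.

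Among the 7 identifiers, ENSCAFG00000011534 differed most. In the normal tissue of the 20 dogs it lay between 0.00852 and 0.581 FPKM, with a median of 0.142 FPKM. In their complex carcinomas it lay between 0.912 FPKM in CMT-678 and 421 FPKM in CMT-301, with a median of 27.4 FPKM. Every complex carcinoma exceeded every normal tissue of these dogs, in which the identifier was also chosen. The share of all tested identifiers with such separation was not counted. In the 44 normal tissues of other dogs it reached 31.0 FPKM, around a median of 0.133 FPKM. The paired difference was 4.80 ± 2.08 in complex carcinomas (SD, n = 20) and 1.80 ± 2.08 in simple carcinomas (SD, n = 21), where it was positive in 18 of 21 dogs. The difference between them was 3.01 ± 0.65 (SE), with a limma adjusted p of 0.048. Without the tumors of grade 3 it was 1.72 (limma adjusted p = 0.32). The paired difference was 4.33 ± 3.09 in the 7 carcinomas in mixed tumors and 3.01 ± 1.74 in the 13 benign tumors. Neither differed from complex carcinomas past the threshold, with limma adjusted p of 0.88 and 0.34. In the 3 dogs with other histologies the paired difference was 6.38 ± 1.20 (SD), positive in all 3 and not tested against complex carcinomas.

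ENSCAFG00000017965 was higher in the tumor in all 20 dogs with complex carcinoma. It lay between 0.165 and 2.80 FPKM in their normal tissue, with a median of 0.758 FPKM, and between 0.843 and 75.4 FPKM in their tumors, with a median of 15.4 FPKM. A total of 19 tumors exceeded every normal tissue, again without a count over all tested identifiers, and the lowest tumor was that of CMT-308. In simple carcinomas the paired difference was positive in 12 of 21 dogs. It was 3.17 ± 1.61 in complex and 0.64 ± 1.73 in simple carcinomas (SD), a difference of 2.53 ± 0.53 (SE), with a limma adjusted p of 0.048. Without the tumors of grade 3 this difference was 1.72 (limma adjusted p = 0.31). The paired difference was 2.12 ± 1.61 in benign tumors and positive in 12 of 13 dogs. In carcinomas in mixed tumors it was 1.86 ± 2.34 and positive in 5 of 7 dogs. Neither differed from complex carcinomas past the threshold, with limma adjusted p of 0.44 and 0.62. In the 3 dogs with other histologies the paired difference was 0.06 ± 0.95 (SD). Both identifiers were also called higher in the 16 separate complex carcinomas, by 3.08 ± 0.37 and 2.19 ± 0.34 (SE, limma adjusted p of 3.2e-08 and 4.4e-06). The other 5 of the 7 identifiers had differences of 1.03 to 2.23.

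**Figure D5:**
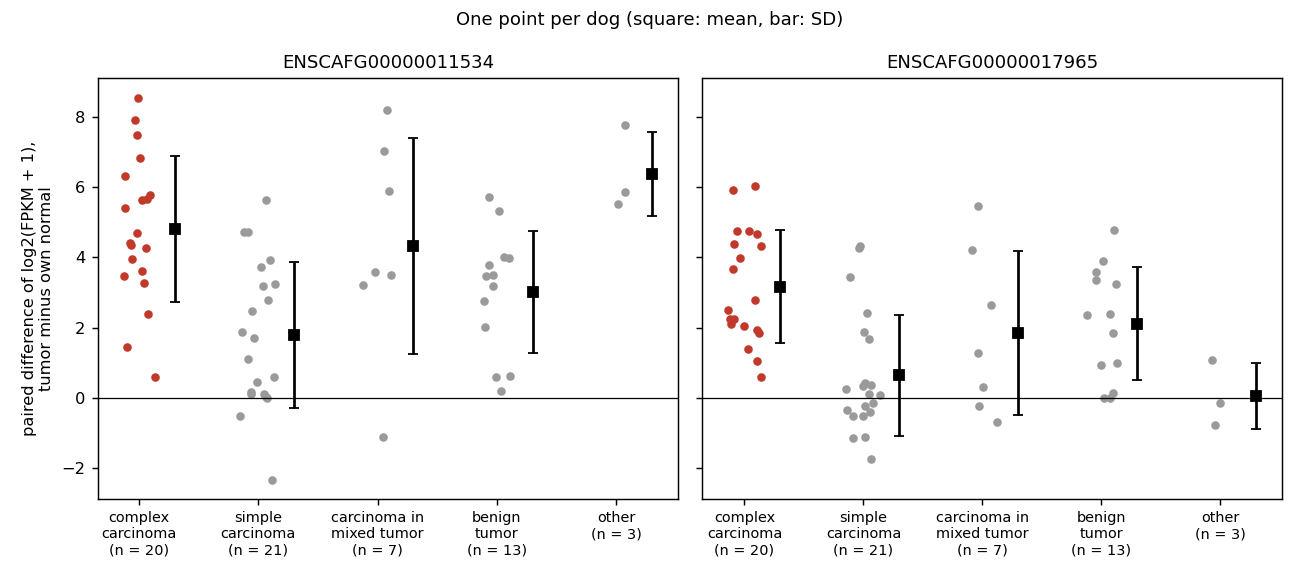
Paired difference of log2(FPKM + 1), tumor minus own normal (vertical axis), by histology (horizontal axis) for ENSCAFG00000011534 and ENSCAFG00000017965, 1 point per dog, with squares and bars for the mean and SD. All 20 complex carcinomas (red) lie above 0 for both identifiers, while simple carcinomas center on 1.80 and 0.64. The 3 tumors of other histologies center on 6.38 and 0.06.

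The identifiers called in complex carcinomas mostly differed in the same direction in the other histologies, with smaller median differences. They were chosen for large differences in the complex carcinomas, which favors larger values there, so the smaller size elsewhere is given as a description. Identifiers called higher in complex carcinomas had a median difference of 0.61 in simple carcinomas, 0.71 in mixed tumors and 0.79 in benign tumors, against 1.31. For those called lower the medians were -1.16, -1.13 and -1.05, against -1.44. Over all tested identifiers the medians in these 3 histologies were 0.00, 0.00 and 0.01. In the 3 dogs with other histologies the medians were 0.94 and -1.19, with 0.22 over all tested identifiers. ENSCAFG00000007857 was higher in 14 of 21 simple carcinomas and 12 of 13 benign tumors, with differences of 2.22 ± 3.52 and 3.68 ± 1.94 (SD). Its difference was larger in complex than in simple carcinomas by 3.07 ± 0.84 (SE, limma adjusted p = 0.066). ENSCAFG00000014019 was higher in 16 of 21 simple carcinomas, and its difference was larger in complex carcinomas by 3.12 ± 0.82 (SE, limma adjusted p = 0.062). ENSCAFG00000025410 was lower in 19 of 21 simple carcinomas and 12 of 13 benign tumors, with differences of -4.95 ± 4.33 and -5.09 ± 4.21 (SD), against -5.49 ± 3.09 in complex carcinomas. The difference between complex and simple carcinomas was -0.54 ± 1.24 (SE, limma adjusted p = 0.83). ENSCAFG00000014049 was lower in 18 of 21 simple carcinomas and 11 of 13 benign tumors, with mean differences of -3.45 and -2.87. In the 7 carcinomas in mixed tumors, ENSCAFG00000007857 differed by 4.14 and ENSCAFG00000014019 by 3.42, each higher in 6 dogs. There ENSCAFG00000025410 differed by -3.31 and ENSCAFG00000014049 by -2.95, each lower in 5 dogs. None of these 4 identifiers had a limma adjusted p under 0.05 for the difference from simple carcinomas, mixed tumors or benign tumors.

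The differences were finally related to features of the dogs and tumors. Between 6 tumors of grade 2 or 3 and 14 of grade 1, limma called 0 of 14638 identifiers, with 1315 at an unadjusted p under 0.05 (8.98%) and a smallest adjusted p of 0.33. With the Allred score of the estrogen receptor, a staining score that ran from 2 to 8, limma found 0 identifiers with a slope past the threshold, and 616 (4.21%) had an unadjusted p under 0.05. Between 6 neutered and 14 intact dogs, 0 identifiers were called in limma's test, and 205 (1.40%) had an unadjusted p under 0.05.

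Surgery year was the only label of a batch kind, and it does not say when RNA was extracted or sequenced. Between the 6 dogs of 2018 and the 13 of 2017, 1 of 14637 identifiers was called (0.00683%), and 2707 had an unadjusted p under 0.05 (18.5%) in limma's test. The called identifier, ENSCAFG00000030541, was named after its values were seen. Its paired difference was 0.67 in 2017 and -0.58 in 2018, which differ by -1.24 ± 0.17 (SE, limma adjusted p = 0.0078). Without CMT-374, the dog whose label gives another histology, 225 identifiers were called between the years, 126 higher in 2018 and 99 lower. Tested within a year, 580 identifiers were called higher and 674 lower in 2017, and 841 higher and 420 lower in 2018. ENSCAFG00000007857 differed by 6.01 ± 2.32 in 2017 and 4.31 ± 1.18 in 2018 (SD), and ENSCAFG00000014049 by -5.57 ± 1.96 and -3.27 ± 1.44. All 4 named identifiers kept their call within each year. Of the 6 dogs with grade 2 or 3, 5 were operated on in 2017 and none in 2018, and 5 of the 6 neutered dogs were operated on in 2017.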

How the data were processed

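Total RNA of fresh tissue kept in RNAlater was enriched for polyadenylated RNA, and libraries were made with the TruSeq RNA kit and sequenced on an Illumina instrument. The authors aligned them to CanFam3.1 under Ensembl gene models as stranded libraries and derived FPKM from the alignments. The notes of the submitters on processing name FastQC 0.10.1, TopHat2 2.0.9, Bowtie2 and Cufflinks 2.1.1. The authors deposited FPKM values for 24580 Ensembl gene identifiers with 1 column per library, and no scaling beyond FPKM is stated. The reads behind a value are unknown, so the spread between dogs is the only error given. Of the identifiers, 17 repeat the values of another in every library, and paralogs or overlapping genes could share fragments.

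Tissue, dog, breed, estrogen receptor score, neuter status and surgery year came from the sample labels. Histology, grade, NMF cluster and mapping rates came from the supplementary data of the study. An NMF cluster is a class of tumors the authors made from these libraries by non-negative matrix factorization. Both libraries of a dog pair because they come from 1 animal. The departures of both libraries of a dog from their tissue means correlated at a median of 0.191 across tested identifiers, from -0.185 to 0.538. The members and gene lists were chosen with earlier results of these data known.

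For tests, limma 3.58.1 (R 4.3.3) with an intensity trend was applied to log2(FPKM + 1), leaving out identifiers that averaged under 0.5 FPKM in the libraries compared. The paired fit had dog as a block, and histologies were compared in a fit over all 64 dogs with 1 tumor term per histology. Tests were two-sided with Benjamini-Hochberg adjustment over all tested identifiers, and calls needed an adjusted p under 0.05 and an absolute difference of at least 1, or any slope for the receptor score. The fits were tested on simulated data with known changes. Permutation tests over dogs used 100000 resamples in scipy 1.17.1. Alternatives changed the pseudocount, the filter, the scaling, the block, the source of histology, the covariates, the years and the dogs.

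The RefSeq gene table at hand, of assembly UU_Cfam_GSD_1.0, gives no Ensembl identifier for any of its 43286 genes. The marker and pathway lists drawn up by gene name were therefore not analysed here, and no sequence is shown. Instead, 2 identifiers were named per direction, those with the largest difference among calls with at least 5 FPKM in the higher tissue and the same sign in at least 16 of 20 dogs. The same was done for complex against simple carcinomas, where only increases were called.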

Additional observations from a re-analysis of the deposited data

Results flagged for a closer look

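The paired difference was larger in complex than in simple carcinomas for 7 identifiers, by limma's test of the difference itself. None was called after upper quartile scaling, with the mapping rate as covariate, without the filter on low values, without CMT-538 and CMT-725, or without the tumors of grade 3. ENSCAFG00000011534 differed by 3.01 and ENSCAFG00000017965 by 2.53 between the histologies, both with a limma adjusted p of 0.048. ENSCAFG00000030541 differed by -1.24 between surgeries in 2018 and in 2017, by the same kind of test. In groups of 6 or 7 dogs, 27 sets of values were searched for a dog far from the others by Dixon's criterion. Chance meets this criterion in about 1 of 20 groups. The sets shared dogs and are not independent, and 2 such values were found. The paired difference of ENSCAFG00000017965 in CMT-724 was 4.74, against 1.05 to 2.25 in the other 5 dogs operated on in 2018. The median difference over all identifiers in CMT-725 was 0.54, against -0.16 to 0.05 in the other 5 neutered dogs.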

How the results depend on the processing

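The 1131 calls of tumor against own normal tissue came to 1012 to 1222 when each dog was left out in turn, with 432 to 580 higher and 559 to 657 lower. With a pseudocount of 0.1 there were 2017 calls, 1111 of them higher. Identifiers called higher made up 27.5% of 1152 calls after median centring and 841 of 1261 in the dogs of 2018 alone. Under the other alternatives this comparison gave between 1066 and 1254 calls. Without the replicate block it gave 1097 calls, 504 higher and 593 lower, so the block changed no count by more than 1.5 times there. The fit of the dogs of 2018 called 555 of the 1131 identifiers again and gave 17 the opposite sign. Leaving out CMT-538 and CMT-725, chosen after the data were seen, gave 1140 calls.

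Between complex and simple carcinomas, where 7 identifiers were called, there were 35 calls with a pseudocount of 0.1 (7 of the 7 among them) and 37 with surgery year as a further term (6 of the 7). There were 4 calls with only these histologies in the fit (3 of the 7) and 1 without the replicate block (1 of the 7). There were 0 without the filter on low values, after upper quartile scaling, with the mapping rate as covariate, without CMT-538 and CMT-725, and without the tumors of grade 3, the last 2 settings chosen after the data were seen. No sign changed among the 7. ENSCAFG00000011534 ranged from 1.72 to 3.01 over the 6 alternatives that lost its call. With histology from the labels, 2 identifiers were called higher in complex carcinomas than in benign tumors. The unpaired comparison gave 1306 calls with a pseudocount of 0.1, 546 higher and 760 lower. The comparison of surgery years gave 9 calls after upper quartile scaling, 4 higher and 5 lower, and 225 with histology from the labels, 126 higher and 99 lower. Against mixed tumors, and for grade, receptor score and neutering, 0 identifiers were called under all alternatives run. The causes were not tested. Read numbers behind the FPKM values are unknown, gene names were not available here, and groups of 6 or 7 dogs limit the tests of grade, neutering, year and mixed tumors.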

Other observations

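Most complex carcinomas were of the NMF1 cluster (13 of 20), with 4 of NMF2, 2 of NMF3 and 1 of NMF4. Since the clusters were made by the authors from these libraries, the values are given without a test. ENSCAFG00000014019 differed from the own normal tissue by 4.46 ± 2.49 in NMF1 (SD, n = 13) and 6.73 ± 1.04 in NMF2 (SD, n = 4), by 5.87 and 8.77 in the dogs of NMF3, and by 1.41 in CMT-308, the dog of NMF4. ENSCAFG00000011534 differed by 4.54 ± 2.05 in NMF1 and 5.34 ± 1.08 in NMF2, by 5.65 and 8.56 in the dogs of NMF3, and by 1.45 in CMT-308. The tumor of CMT-308 thus held among the lowest levels of identifiers that rose in the group, and the highest tumor levels of ENSCAFG00000025410 and ENSCAFG00000014049, which fell. In CMT-308 the summed level of the identifiers called lower was 30204 FPKM in the tumor, the highest of the 20 tumors, against a median of 9790 FPKM.

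The tumor of CMT-201 had the lowest levels of both leading increases, 6.87 FPKM of ENSCAFG00000007857 and 0.190 FPKM of ENSCAFG00000014019, while ENSCAFG00000011534 was at 12.1 FPKM and ENSCAFG00000017965 at 20.7 FPKM in the same tumor. The increases of the named identifiers were therefore not all small in that dog.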
